A study of Mus musculus with 9 samples.

Results

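The Myc, Max and Mxd network is the set of 9 genes Mycn, Myc, Max, Mxd1, Mxd3, Mxd4, Mxi1, Mnt and Mga, chosen by symbol from gene-level tables of mouse tumour and cerebellum RNA. All 9 were among the 23360 genes listed, and all 9 passed the filter on low values (at least 3 libraries with an FPKM of 1 or more, where FPKM is fragments scaled by gene length and library size), which left 14337 genes for testing. Ribosome-depleted total RNA had been sequenced on an Ion Proton instrument in 9 libraries, 3 in each of 3 groups. A1G tumours were primary Sonic Hedgehog (SHH) medulloblastomas, malignant tumours of the cerebellum, from mice of genotype Math1-cre;A1G;Ptch1+/-. Ptch1 tumours were primary SHH medulloblastomas from Ptch1+/- mice, so every tumour carried the heterozygous loss of Ptch1, the receptor that restrains SHH signalling. The cerebellum came from adult wild type C57BL/6 mice. The design text describes the first tumours as driven by ATOH1 together with aberrant SHH signalling, and the labels do not spell out the A1G allele. Math1 is an older name of Atoh1, a transcription factor of granule neuron progenitors, so Math1-cre acts in the Atoh1 lineage. Tumour mice were of mixed strain, so strain and tissue cannot be told apart in the contrasts with cerebellum. Nothing in the labels says whether the replicates of a group came from separate animals, and p-values then measure only the spread between these libraries, which may be technical.

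MYC and MYCN are basic helix-loop-helix leucine zipper proteins that bind DNA, at the E-box CACGTG above all, as partners of MAX, and they raise transcription of genes for ribosome biogenesis, translation, metabolism and cell division. MXD1, MXD3, MXD4, MXI1 and MNT bind the same sites with MAX and recruit the SIN3 histone deacetylase complex, which lowers transcription. MGA also pairs with MAX and is part of a Polycomb repressive complex, PRC1.6. In the developing mouse cerebellum, SHH raises Mycn in granule neuron progenitors and Mycn is needed for their proliferation.

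The promoter windows that carry the motifs discussed here are shown so that the letters can be set beside the expression values. Each is the 250 bases before the RefSeq transcription start (GRCm38.p6), printed 5' to 3' on the strand of the gene, with the matches in capitals. RefSeq held a promoter for 8 of the 9 members. The motifs searched on both strands were the E-box CACGTG, the E2F site in 2 spellings, TTTCGCGC and TTTGGCGC, and the GLI site GACCACCCA. GLI proteins are the transcription factors of the SHH pathway, and E2F proteins drive genes of the S phase. Capitals in the first sequence mark E2F spellings, and in the other 4 the E-box. Mycn is the member with the widest difference between tumour and cerebellum, Mxd4 and Mnt are the members with an E-box, and Cdk4 and Eif4a1 are growth targets named in the results.
Mycn, chr12:12941837-12942086, minus strand: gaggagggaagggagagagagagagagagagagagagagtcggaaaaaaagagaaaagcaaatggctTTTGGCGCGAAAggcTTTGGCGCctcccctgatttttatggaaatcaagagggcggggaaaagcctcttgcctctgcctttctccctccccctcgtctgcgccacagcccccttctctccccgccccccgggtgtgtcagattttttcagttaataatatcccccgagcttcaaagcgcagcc
Mxd4, chr5:34187711-34187960, minus strand: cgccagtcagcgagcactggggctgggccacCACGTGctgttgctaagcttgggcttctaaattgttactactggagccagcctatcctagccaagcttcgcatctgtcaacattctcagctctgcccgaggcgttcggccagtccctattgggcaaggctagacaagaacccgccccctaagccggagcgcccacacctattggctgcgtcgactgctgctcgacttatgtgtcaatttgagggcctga
Mnt, chr11:74830674-74830923, plus strand: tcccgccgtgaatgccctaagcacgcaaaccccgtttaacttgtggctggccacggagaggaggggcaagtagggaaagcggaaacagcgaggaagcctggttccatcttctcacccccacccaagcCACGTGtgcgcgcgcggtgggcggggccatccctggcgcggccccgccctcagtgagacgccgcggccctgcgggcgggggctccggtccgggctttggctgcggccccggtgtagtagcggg
Cdk4, chr10:127063285-127063534, plus strand: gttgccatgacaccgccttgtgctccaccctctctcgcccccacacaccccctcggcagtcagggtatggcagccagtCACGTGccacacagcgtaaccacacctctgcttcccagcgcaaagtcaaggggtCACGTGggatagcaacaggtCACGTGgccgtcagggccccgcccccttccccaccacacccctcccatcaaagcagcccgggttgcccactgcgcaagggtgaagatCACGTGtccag
Eif4a1, chr11:69672424-69672673, minus strand: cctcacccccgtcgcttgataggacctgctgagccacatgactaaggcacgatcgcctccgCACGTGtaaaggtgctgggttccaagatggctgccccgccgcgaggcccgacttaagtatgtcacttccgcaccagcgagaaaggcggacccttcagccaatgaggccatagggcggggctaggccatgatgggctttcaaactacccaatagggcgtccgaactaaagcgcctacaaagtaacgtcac

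The Mycn window held 3 E2F matches, which began 183, 179 and 168 bases before the start, and the first overlaps the second. A match to either E2F spelling was present in 1.19% of the 13269 promoters of tested genes and in 0.654% of all 32851 promoters. Mxd4 had its E-box 219 bases and Mnt its E-box 123 bases before the start. An E-box was present in 7.99% of the promoters of tested genes and in 6.02% of all promoters. No match to any of these spellings was found in the windows of Max, Mxd1, Mxd3, Mxi1 or Mga, and no member's window held the GLI spelling, which 0.225% of all promoters held. Such a match describes the letters of the window and not the binding of a factor.

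The libraries held 2579173, 3049987 and 2350941 fragments in A1G tumours, 4395159, 9290237 and 2699234 fragments in Ptch1 tumours, and 3868432, 3304042 and 5300936 fragments in cerebellum. Levels are given as CPM, fragments of a gene relative to the fragments of the library, scaled over all 9 libraries, and replicates always in the order 1 to 3. Atoh1 had 652, 386 and 296 CPM in A1G tumours, 279, 328 and 405 CPM in the Ptch1 tumours, and 0, 10.03 and 16.4 CPM in cerebellum. Its level in A1G against Ptch1 tumours did not pass the test (log2 fold change 0.40, SE 0.69, edgeR adjusted p = 0.876). Ptch1, itself a target of SHH signalling, had 79.6, 299.7 and 60.04 CPM in A1G tumours, 72.1, 52.8 and 100 CPM in the Ptch1 tumours, and 55.9, 105 and 181 CPM in cerebellum, with A1G tumour replicate 2 standing apart. It passed neither contrast with cerebellum (edgeR adjusted p = 0.66 in A1G and 0.421 in Ptch1 tumours), and whether fragments came from the deleted part of the gene is not known. Of all tested genes, 16.3% were called higher and 16.1% lower in A1G tumours against cerebellum (edgeR). In Ptch1 tumours the shares were 20.2% and 19.7%, and the marker calls against cerebellum stand beside these. Markers of dividing cells, 8 of 8 higher in both tumour kinds, summed to 4769, 1331 and 3586 CPM in A1G tumours, 4806, 6013 and 5208 CPM in the Ptch1 tumours, and 33.5 to 47.0 CPM in cerebellum. Markers of mature granule neurons, 5 of 5 lower in both tumour kinds, summed to 178, 767 and 449 CPM in A1G tumours, 122, 120 and 395 CPM in the Ptch1 tumours, and 3541 to 4089 CPM in cerebellum. Markers of Purkinje cells (5 of 5), oligodendrocytes (6 of 6) and astrocytes and Bergmann glia (4 of 5) were lower in both tumour kinds, and the Purkinje marker Pcp2 had no fragment in Ptch1 tumours. Purkinje markers summed to 326 to 649 CPM in A1G tumours, 164 to 260 CPM in the Ptch1 tumours and 8009 to 10182 CPM in cerebellum. Between the tumour kinds, 1 of these 5 was called higher in A1G tumours, beside 0.0139% of tested genes called either way (edgeR). The granule neuron progenitor markers were Atoh1, Barhl1, Zic1, Zic2, Pax6 and Neurod1, with 3 of 6 higher in each tumour kind. They summed to 2346 to 4855 CPM in A1G tumours, 2812 to 4336 CPM in the Ptch1 tumours and 2130 to 3594 CPM in cerebellum. Since Atoh1 was at 0, 10.03 and 16.4 CPM in cerebellum, the sum there comes almost wholly from the other markers. It is thus not a measure of Atoh1-expressing cells. Microglial markers summed to 137 to 197 CPM in A1G tumours, 95.8 to 141 CPM in the Ptch1 tumours and 105 to 130 CPM in cerebellum. Of these 5, 1 was higher and 0 lower in A1G tumours, and 1 was higher and 1 lower in Ptch1 tumours. Endothelial markers summed to 48.7 to 98.8 CPM in A1G tumours, 27.7 to 72.3 CPM in the Ptch1 tumours and 94.0 to 140 CPM in cerebellum. Of these 4, 0 were higher and 1 was lower in each tumour kind. These are bulk samples, in which fewer cells of a type and less RNA per cell cannot be told apart, and the part of this difference in cell types in the results that follow was not tested.

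Mycn, Myc and Mxd3 were the members that separated tumour from cerebellum most widely, and all 3 were higher in both tumour kinds. Mga was higher in both by a smaller step, Mxi1 passed the test in the contrast of Ptch1 tumours with cerebellum and missed it in that of A1G tumours, and no member was lower past the threshold. In A1G tumours against cerebellum 4 of 9 members were higher and 0 lower, against 16.3% of all tested genes higher, 16.1% lower and 32.4% either way (edgeR quasi-likelihood test, adjusted p under 0.05). In Ptch1 tumours against cerebellum 5 of 9 were higher and 0 lower, against 20.2% of tested genes higher, 19.7% lower and 40.0% either way. An unadjusted p under 0.05 was reached by 4 of 9 members in A1G tumours, against 42.6% of tested genes, and by 7 of 9 in Ptch1 tumours, against 48.5%. The median log2 fold change of the members was 0.50 in A1G tumours and 0.76 in Ptch1 tumours, beside 0.03 and 0.00 for all tested genes. Both contrasts use the same cerebellum libraries, so their values are set side by side and are not independent. With 3 libraries against 3, the exact two-sided permutation test of a single member cannot give a p below 0.1.

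**Figure D1:**
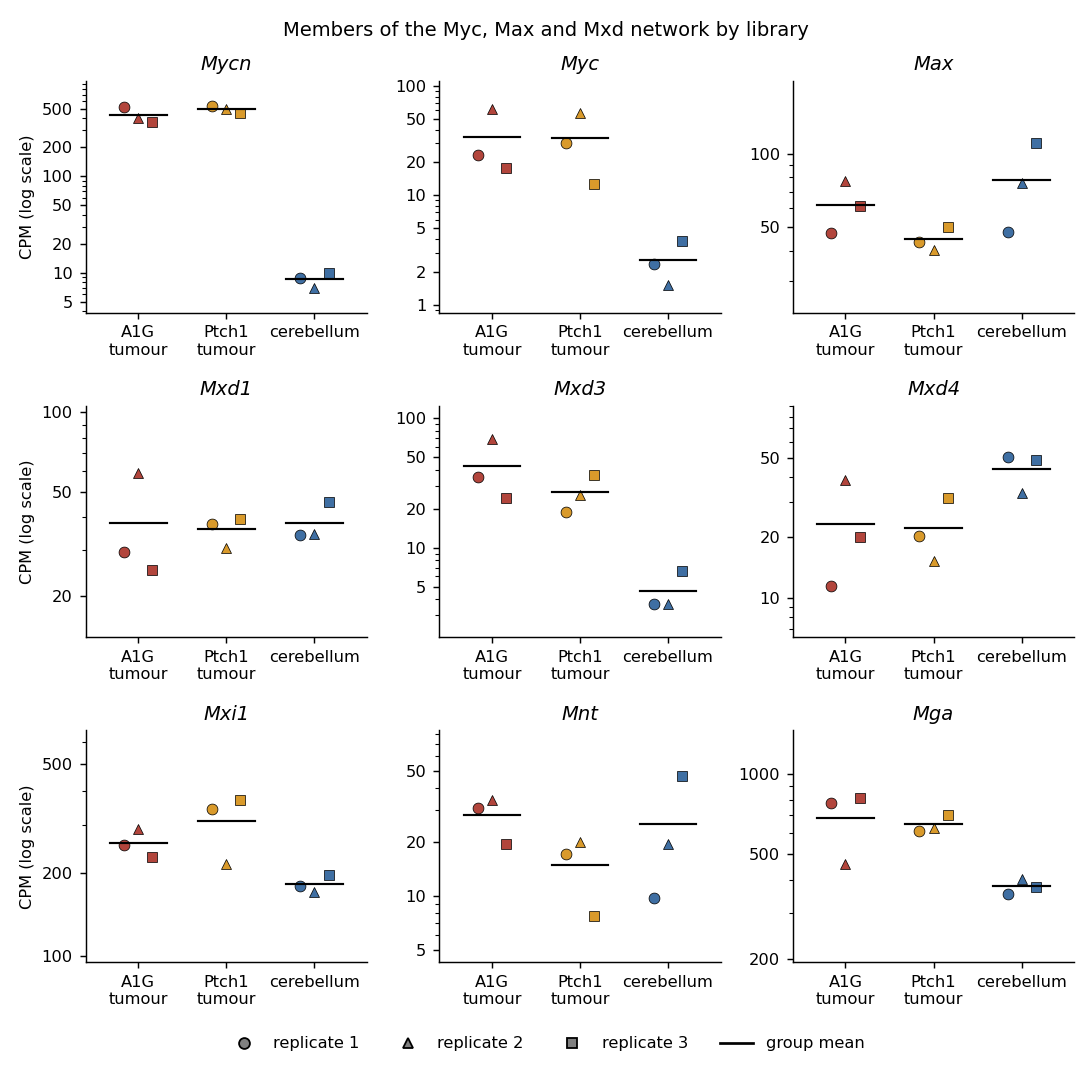
CPM of each member (vertical axis, log scale) in the 3 libraries of A1G tumours, Ptch1 tumours and cerebellum, with a point shape per replicate and a line at the group mean. Mycn, Myc and Mxd3 lie higher in all 6 tumour libraries than in any cerebellum library, while Max, Mxd1 and Mnt overlap between groups.

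Mycn (chromosome 12, 12936093 to 12941914, mm10, minus strand), the MYC family gene of neural progenitors, had 515, 402 and 361 CPM in A1G tumours, 538, 499 and 452 CPM in the Ptch1 tumours, and 8.93, 6.99 and 9.98 CPM in cerebellum. All tumour libraries lay far above all cerebellum libraries, and the tumour kinds overlapped. The group means were 425.9 ± 80.1 CPM in A1G tumours, 496.2 ± 42.8 CPM in the Ptch1 tumours and 8.63 ± 1.52 CPM in cerebellum (SD, n = 3 each). The log2 fold change against cerebellum was 5.61 in A1G tumours (SE 0.31, 95% interval 4.94 to 6.28, 48.9-fold, edgeR adjusted p = 6.63e-07). It was 5.83 in Ptch1 tumours (SE 0.31, interval 5.16 to 6.51, 57.0-fold, edgeR adjusted p = 2.06e-07). Among the 23360 listed genes, Mycn ranked 275th, 412th and 378th by FPKM in A1G tumours and 307th, 383rd and 346th in Ptch1 tumours, against 10489th, 11365th and 10480th in cerebellum.

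Myc (chromosome 15, 61985391 to 61990374, plus strand), the founding member of the family, had 23.2, 61.8 and 17.7 CPM in A1G tumours, 30.2, 57.0 and 12.6 CPM in the Ptch1 tumours, and 2.36, 1.52 and 3.79 CPM in cerebellum. The cerebellum values rest on 9, 5 and 19 fragments. Every tumour library was above every cerebellum library, but replicate 2 of each tumour kind stood well above the others of its group. Against cerebellum the log2 fold change was 3.69 in A1G tumours (SE 0.67, 13.0-fold, edgeR adjusted p = 0.00126) and 3.67 in Ptch1 tumours (SE 0.66, 12.7-fold, edgeR adjusted p = 0.000931). Without A1G tumour replicate 2 the first value was 2.95 (edgeR adjusted p = 0.00358), and without Ptch1 tumour replicate 2 the second was 3.03 (edgeR adjusted p = 0.00395). By FPKM, which adjusts for gene length, Mycn exceeded Myc by 20.3, 5.96 and 18.7 times in A1G tumours, by 16.3, 8.04 and 32.8 times in Ptch1 tumours, and by 3.46, 4.22 and 2.41 times in cerebellum. The lowest of the 6 tumour ratios was thus above the highest ratio in cerebellum.

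Max (chromosome 12, 76937269 to 76962201, minus strand), the shared partner without which neither MYC nor the MXD proteins bind DNA, had 47.2, 77.7 and 60.9 CPM in A1G tumours, 43.5, 40.1 and 50.2 CPM in the Ptch1 tumours, and 47.8, 76.0 and 110 CPM in cerebellum. The groups overlapped, and cerebellum spanned the widest range. The log2 fold change against cerebellum was -0.34 in A1G tumours (SE 0.32, 95% interval -1.04 to 0.37, edgeR adjusted p = 0.463) and -0.81 in Ptch1 tumours (SE 0.33, interval -1.52 to -0.11, edgeR adjusted p = 0.0641). The Ptch1 contrast passed the threshold without cerebellum replicate 1 (-1.07, edgeR adjusted p = 0.0206), with a stricter filter of FPKM of at least 5 (-0.90, edgeR adjusted p = 0.0426) and in DESeq2 (-0.86, adjusted p = 0.0441, a test that called 43.0% of genes there). In A1G tumours the value was 0.02 without cerebellum replicate 3.

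**Figure D2:**
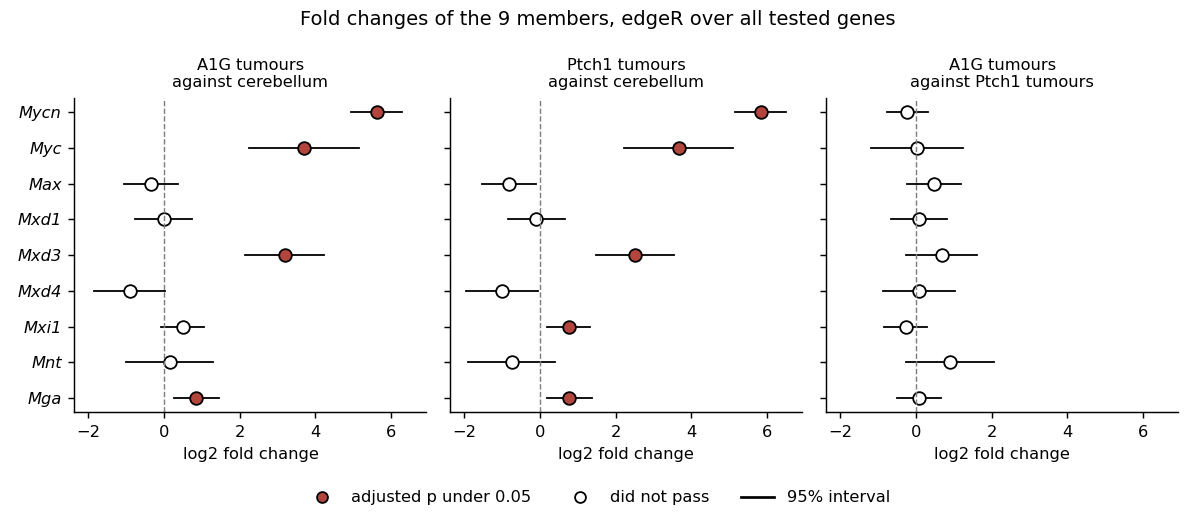
Log2 fold change (horizontal axis) of each member in the 3 comparisons, with 95% intervals; filled points have an edgeR adjusted p under 0.05. Mycn, at 5.61 in A1G and 5.83 in Ptch1 tumours against cerebellum, lies farthest to the right, and every interval of A1G against Ptch1 tumours includes 0.

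Of the 4 MXD genes, Mxd3 was higher in both tumour kinds, Mxi1 passed in Ptch1 tumours, and Mxd1 and Mxd4 passed neither contrast. Mxd3 (chromosome 13, 55325168 to 55329823, minus strand), the MXD gene that is expressed in proliferating progenitors, had 35.02, 69.6 and 24.3 CPM in A1G tumours, 19.0, 25.4 and 36.4 CPM in the Ptch1 tumours, and 3.68, 3.65 and 6.59 CPM in cerebellum (14, 12 and 33 fragments). All tumour libraries exceeded all cerebellum libraries. The log2 fold change against cerebellum was 3.19 in A1G tumours (SE 0.48, 9.11-fold, edgeR adjusted p = 0.000373) and 2.503 in Ptch1 tumours (SE 0.47, 5.67-fold, edgeR adjusted p = 0.00122). The gene shares 105 bases with Prelid1 on the opposite strand, and the counting is not stated to use strand. Mxd3 fragments were not whole in 9 of 9 libraries, and whether reads were divided between the pair was not tested. Max, Mxd1, Mxd4 and Mxi1 also overlap other genes of GENCODE M21, none of which was among the genes listed. Prelid1 had 88.5, 55.5 and 118 CPM in A1G tumours, 70.8, 89.4 and 98.5 CPM in the Ptch1 tumours, and 55.2, 59.3 and 37.1 CPM in cerebellum, and passed neither contrast with cerebellum (edgeR adjusted p = 0.0754 in A1G and 0.0699 in Ptch1 tumours).

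Mxd4 (chromosome 5, 34173883 to 34187720, minus strand), an MXD gene associated with differentiated cells, had 11.4, 38.7 and 20.2 CPM in A1G tumours, 20.4, 15.3 and 31.4 CPM in the Ptch1 tumours, and 50.4, 33.1 and 48.5 CPM in cerebellum. Ptch1 tumours lay below cerebellum without overlap, and A1G tumours did so except for replicate 2. Neither contrast passed the test, at a log2 fold change of -0.91 in A1G tumours (SE 0.44, edgeR adjusted p = 0.134) and -0.99 in Ptch1 tumours (SE 0.43, edgeR adjusted p = 0.0873). Without A1G tumour replicate 2 both passed, at -1.48 in A1G tumours (edgeR adjusted p = 0.0191) and -0.998 in Ptch1 tumours (edgeR adjusted p = 0.0393). In that library the mature granule neuron markers were the highest of the A1G tumours, at 767 CPM. The part of these markers in the level of Mxd4 was not tested.

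Mxd1 (chromosome 6, 86647042 to 86669161, minus strand), which encodes a MAX partner associated with differentiation, had 29.5, 59.0 and 25.1 CPM in A1G tumours, 37.8, 30.4 and 39.5 CPM in the Ptch1 tumours, and 34.1, 34.4 and 45.5 CPM in cerebellum. The groups overlapped. Its log2 fold change against cerebellum was -0.003 in A1G tumours (95% interval -0.75 to 0.75, edgeR adjusted p = 0.995) and -0.09 in Ptch1 tumours (interval -0.83 to 0.66, edgeR adjusted p = 0.863). Mxi1 (chromosome 19, 53310518 to 53375810, plus strand), which encodes a further MAX partner of the MXD family, had 253, 291 and 228 CPM in A1G tumours, 343, 216 and 369 CPM in the Ptch1 tumours, and 179, 171 and 198 CPM in cerebellum. Each tumour library was above each cerebellum library, by a narrow margin. The log2 fold change of Mxi1 was 0.50 in A1G tumours (SE 0.26, edgeR adjusted p = 0.17) and 0.76 in Ptch1 tumours (SE 0.26, 1.69-fold, edgeR adjusted p = 0.0359). The call in Ptch1 tumours was lost without Ptch1 tumour replicate 1 or 3 (edgeR adjusted p = 0.117 in each case) and without cerebellum replicate 1, 2 or 3 (edgeR adjusted p = 0.0797, 0.127 and 0.0533), and it held in 9 of 18 alternatives. It was also lost with the stricter filter, limma on log2(FPKM + 1), the 2 groups alone and a replicate block (adjusted p of 0.0548, 0.051, 0.0555 and 0.0549). The difference in Mxi1 between A1G and Ptch1 tumours itself was -0.26 on the log2 scale (SE 0.26, edgeR adjusted p = 0.749).

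Mnt (chromosome 11, 74830920 to 74845725, plus strand), which encodes a widely expressed MAX partner and repressor, had 31.0, 34.3 and 19.3 CPM in A1G tumours, 17.2, 19.9 and 7.66 CPM in the Ptch1 tumours, and 9.72, 19.5 and 46.5 CPM in cerebellum. Cerebellum alone spanned the range of the tumour groups except for the lowest Ptch1 library. Its log2 fold change against cerebellum was 0.15 in A1G tumours (95% interval -0.99 to 1.301, edgeR adjusted p = 0.847) and -0.74 in Ptch1 tumours (interval -1.90 to 0.41, edgeR adjusted p = 0.289). Without cerebellum replicate 3 the first value was 0.98 (edgeR adjusted p = 0.177) and the second 0.06 (edgeR adjusted p = 0.942). Mga (chromosome 2, 119897228 to 119969581, plus strand) had 779, 459 and 813 CPM in A1G tumours, 613, 627 and 704 CPM in the Ptch1 tumours, and 351, 404 and 376 CPM in cerebellum. All tumour libraries were above all cerebellum libraries, with A1G tumour replicate 2 closest to them. The log2 fold change of Mga was 0.86 in A1G tumours (SE 0.27, 1.81-fold, edgeR adjusted p = 0.0287) and 0.78 in Ptch1 tumours (SE 0.27, 1.72-fold, edgeR adjusted p = 0.0361).

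The call for Mga in A1G tumours was lost without A1G tumour replicate 1 or 3 (edgeR adjusted p = 0.0949 and 0.104) and without cerebellum replicate 1, 2 or 3 (0.0797, 0.0687 and 0.0503). In Ptch1 tumours it was lost without Ptch1 tumour replicate 1, 2 or 3 (0.0738, 0.069 and 0.0914) and without cerebellum replicate 1, 2 or 3 (0.0909, 0.0792 and 0.0631). The count of members higher in Ptch1 tumours fell to 3 of 9 without Ptch1 tumour replicate 1 or 3, or any 1 of the cerebellum libraries. By contrast, Mycn, Myc and Mxd3 passed in 18 of 18 alternatives in both contrasts. Some of these alternatives left out a library of the group not compared, which changes the spread in the fit but hardly the fold change.

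As a count of separation, 5 members in A1G tumours lay above cerebellum without overlap (Mycn, Myc, Mxd3, Mxi1 and Mga) and 0 below, against 22.5% and 23.4% of tested genes. In Ptch1 tumours the same 5 lay above and 1 below (Mxd4), against 27.2% and 27.0% of tested genes.

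Set beside each other per length, the members made up a different mixture in tumour and cerebellum. Since the authors scaled tumour and cerebellum FPKM separately, each member is given as its share of the members' summed FPKM within a library. Mycn held 51.3%, 36.6% and 42.9% in A1G tumours and 52.2%, 52.4% and 44.3% in Ptch1 tumours, against 2.33%, 1.81% and 1.95% in cerebellum. It was thus the leading member in every tumour library and lay below Max, Mxd1, Mxd4, Mxi1 and Mga in every cerebellum library. The 4 genes Mxd1, Mxd3, Mxd4 and Mxi1 together held 24.5%, 38.7% and 26.9% in A1G tumours and 27.5%, 22.6% and 35.1% in Ptch1 tumours, against 62.63%, 50.03% and 50.44% in cerebellum. Mxd4 held 2.79% to 8.63% in A1G tumours and 3.93% to 7.54% in Ptch1 tumours, against 21.04% to 32.2% in cerebellum. Max held 6.28%, 9.54% and 9.76% in A1G tumours and 5.61%, 5.64% and 6.63% in Ptch1 tumours, against 16.8%, 26.6% and 29.1% in cerebellum. A share falls when another member rises, so the lower shares of Max do not show a lower level of Max.

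The summed FPKM of Mycn and Myc was 8.57, 4.48 and 4.63 times that of Max in A1G tumours and 9.87, 10.4 and 6.89 times in Ptch1 tumours, against 0.179, 0.0844 and 0.0949 times in cerebellum. MYC family transcripts thus outnumbered Max transcripts, per length, in each tumour library, and were fewer than them in each cerebellum library. Against the 4 MXD genes the same sum was 2.19, 1.10 and 1.68 times in A1G tumours and 2.02, 2.611 and 1.301 times in Ptch1 tumours, against 0.0479, 0.0448 and 0.0546 times in cerebellum. These are transcript ratios, and protein was not measured.

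**Figure D3:**
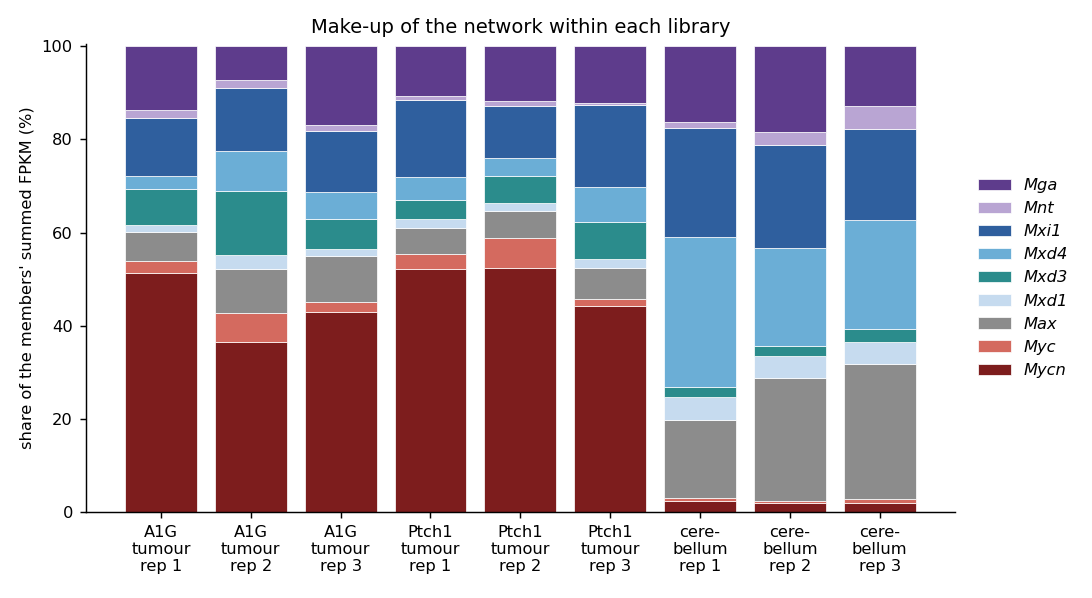
Share (%) of each member in the members' summed FPKM, 1 stacked bar per library. Mycn takes 36.6% to 52.4% of the bar in the 6 tumour libraries and 1.81% to 2.33% in cerebellum, where Max, Mxd4 and Mxi1 take the widest shares.

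Between the tumour kinds no member differed past the threshold. Of 9 members 0 passed in A1G against Ptch1 tumours, against 2 of 14337 tested genes (0.0139%, edgeR). By unadjusted p under 0.05 the counts were 0 members and 10.6% of tested genes, and DESeq2 called 0 members and 1.14% of genes. No member separated the tumour kinds without overlap, beside 15.5% of tested genes. The log2 fold change of Mycn was -0.22 (95% interval -0.76 to 0.32) and that of Mga 0.08 (interval -0.51 to 0.66). Myc stood at 0.03 with the wide interval of -1.19 to 1.25, and at -0.72 without A1G tumour replicate 2. The values farthest from 0 were those of Mnt, 0.90 (interval -0.26 to 2.06, edgeR adjusted p = 0.568), and Mxd3, 0.68 (interval -0.25 to 1.62, edgeR adjusted p = 0.594). For Mxd3 the value was 0.15 without A1G tumour replicate 2. These intervals leave room for differences of more than 2-fold in Myc, Max, Mxd3, Mxd4 and Mnt.

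Within groups, single libraries stood out. A1G tumour replicate 2 was the highest of its group for 7 of 9 members, all but Mycn and Mga, whereas it was highest for 36.9% of all tested genes. It was the lowest for Mga. In the same library the dividing cell markers summed to 1331 CPM, against 4769 and 3586 CPM in A1G tumour replicates 1 and 3, and the mature granule neuron markers to 767 CPM, against 178 and 449 CPM. Cerebellum replicate 3 was the highest of its group for 7 members, all but Mxd4 and Mga, beside 38.9% of all tested genes. Ptch1 tumour replicate 3 was the highest of its group for 6 members, beside 33.4% of all tested genes, and the lowest for 3 (Mycn, Myc and Mnt), beside 38%. The part of the marker levels in this spread was not tested. Leaving out A1G tumour replicate 2 and cerebellum replicate 3 together, an alternative chosen after seeing the data, left 4 members higher and 1 lower (Mxd4, -1.41, edgeR adjusted p = 0.0412) in A1G tumours.

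The coefficient of variation of Mycn was 8.63% in Ptch1 tumours, 18.8% in A1G tumours and 17.6% in cerebellum. Mga in Ptch1 tumours (7.56%) and Mxi1 in A1G tumours (12.3%) varied less than Mycn. In cerebellum Mga (6.96%), Mxi1 (7.51%) and Mxd1 (17.1%) did so. In contrast, the coefficient for Myc was 70.2% in A1G tumours and 67.1% in Ptch1 tumours, and that of Mnt was 75.6% in cerebellum.

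**Figure D4:**
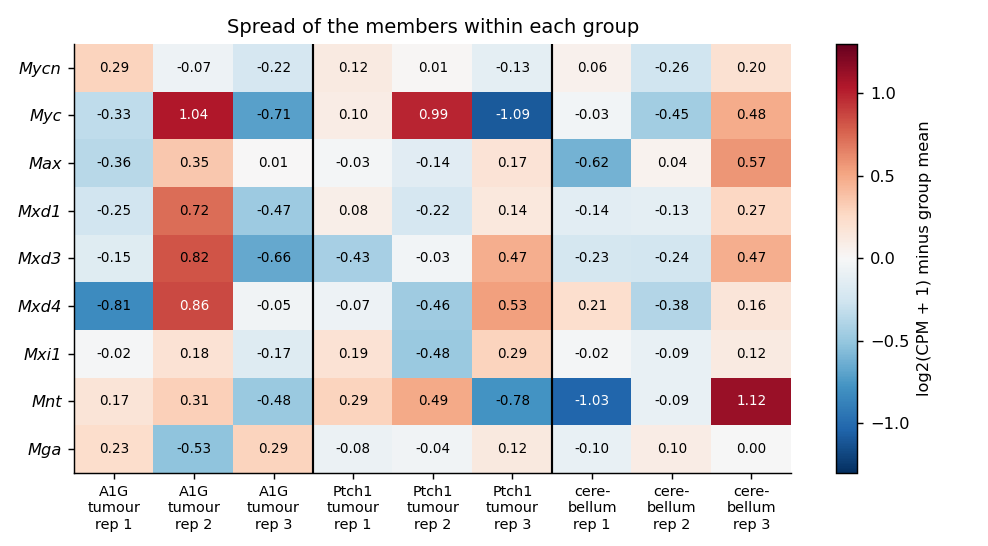
Deviation of each library from its group mean on the log2(CPM + 1) scale, with members as rows and libraries as columns. Myc reaches 1.04 in A1G tumour replicate 2 and -1.09 in Ptch1 tumour replicate 3, and Mnt 1.12 in cerebellum replicate 3, while Mycn stays between -0.26 and 0.29.

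The genes with the most similar pattern over the 9 libraries were found by the root mean square difference of log2(CPM + 1), each gene centred on its own mean, among genes with a mean of at least 10 CPM. Mycn was closest to Tox3 (difference 0.20), Cd24a (0.22) and Mex3a (0.27), beside its own standard deviation of 2.64 over the libraries. Closest to Myc were Ppp1r18 (0.25), Mpeg1 (0.36) and Scml2 (0.46), with a standard deviation of Myc of 1.62. Mxd3 was closest to Robo1 (0.23), Fgd6 (0.30) and Phf21b (0.34), with its own standard deviation at 1.32. For Mxd4 the closest were Tmem120b (0.23), Cd200 (0.24) and Samd14 (0.25), against a standard deviation of 0.68. Mga was closest to Setd2 (0.08), Hbp1 (0.10) and Anapc1 (0.11), against 0.44. For Max, Mxd1 and Mxi1, the closest were Rtn3, Lrrc8a and Sik2 (0.10 to 0.15, Max), Map2k7, Rnf166 and Exoc6b (0.13 each, Mxd1), and Htra2, Ewsr1 and Zfp777 (0.13 to 0.17, Mxi1). The genes closest to Mnt were Zfp319, Glrx2 and Dmpk (0.24 to 0.31). These are descriptions over 9 libraries in 3 groups, in which a shared step between tumour and cerebellum enters the likeness. Adding 1 also compresses the steps of genes near 0, such as Tox3 and Scml2, with means of 0.52 and 0.93 CPM in cerebellum.

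The growth targets of MYC, a list of 30 genes for ribosome biogenesis, translation, metabolism and the cell cycle, were mostly higher in tumours. Of the 29 tested (Tert did not pass the filter), 19 were higher and 0 lower in A1G tumours, and 22 were higher and 0 lower in Ptch1 tumours, against 16.3% and 20.2% of all tested genes higher. Their median log2 fold change was 1.17 in A1G tumours and 1.70 in Ptch1 tumours, beside 0.03 and 0.00 for all tested genes. Ccnd2, a D-type cyclin, had 942 ± 254 CPM in A1G tumours, 1272 ± 229 CPM in the Ptch1 tumours and 7.98 ± 1.64 CPM in cerebellum (SD, n = 3 each). Its log2 fold change was 6.87 in A1G tumours (SE 0.38, edgeR adjusted p = 6.63e-07) and 7.30 in Ptch1 tumours (SE 0.38, edgeR adjusted p = 2.06e-07). Cdk4, the kinase that D-type cyclins activate, averaged 237 ± 53.4 CPM in A1G tumours, 231 ± 72.3 CPM in the Ptch1 tumours and 21.9 ± 2.73 CPM in cerebellum. Eif4a1, a helicase of translation initiation, was higher in A1G tumours by 1.87 on the log2 scale, at 240, 238 and 231 CPM against 62.8, 72.1 and 58.7 CPM in cerebellum. Apex1, an endonuclease of base excision repair, was higher in Ptch1 tumours by 4.38, at 221, 187 and 218 CPM against 17.1, 7.602 and 5.39 CPM in cerebellum. The list was chosen with earlier results of these data known, so its counts and medians are not independent of them. Dividing cell markers differed between the same groups, and the part of division in these values was not tested.

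Of the 25 growth targets with a RefSeq promoter, 8 had an E-box in the 250-base window (32%), beside 9.67% of the 10342 tested genes with a promoter. They were Apex1, Cdk4, Eif4a1, Eif4e, Hspd1, Ldha, Nme1 and Phb, and the Cdk4 window printed above held 4 copies. The genes were listed as targets of MYC, which binds the E-box, so this share is not independent of how the list was chosen. Having the motif did not go with passing the test in each case. Ldha, Nme1 and Phb passed neither contrast with cerebellum, Eif4e and Hspd1 passed that of Ptch1 tumours alone, and Apex1, Cdk4 and Eif4a1 passed both. Odc1 and Ncl, for which no E-box was found in the window, were higher in both tumour kinds. Their log2 fold changes were 2.61 and 1.26 in A1G tumours and 2.63 and 1.92 in Ptch1 tumours. Only the 250-base window was searched, so an E-box elsewhere in a gene would be missed. The window thus cannot show that a gene lacks an E-box.

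Of 9 genes for proteins that control MYC stability, 3 were higher (Aurka, Plk1 and Skp2), 1 was lower (Fbxw7) and 5 did not pass, in both tumour kinds alike. The 4 calls of 9 are near the 32.4% of all tested genes called either way in A1G tumours and the 40.0% in Ptch1 tumours. Aurka, a mitotic kinase that also shields MYCN from degradation, had 63.6 ± 30.4 CPM in A1G tumours, 78.5 ± 23.4 CPM in the Ptch1 tumours and 0.907 ± 0.365 CPM in cerebellum (SD, n = 3 each), a log2 fold change of 6.08 and 6.38. Plk1, a mitotic kinase, differed by 4.83 in A1G and 5.41 in Ptch1 tumours, and Skp2, a ubiquitin ligase subunit, by 2.12 and 2.14. Fbxw7, the ubiquitin ligase subunit that marks phosphorylated MYC and MYCN for degradation, had 102, 107 and 95 CPM in A1G tumours against 357, 349 and 215 CPM in cerebellum. Its log2 fold change was -1.60 in A1G tumours (SE 0.26, edgeR adjusted p = 0.000645) and -1.12 in Ptch1 tumours (SE 0.26, edgeR adjusted p = 0.00433). Aurka and Plk1 are themselves genes of dividing cells, whose markers were higher in tumours.

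Coactivators that MYC recruits were higher for 5 of 11 genes in A1G tumours (Actl6a, Ruvbl1, Ruvbl2, Trrap and Wdr5) and for 4 of 11 in Ptch1 tumours (all of these but Trrap), with 0 lower in either, against 16.3% and 20.2% of all tested genes higher. The median log2 fold change was 0.52 in A1G tumours and 0.35 in Ptch1 tumours, beside 0.03 and 0.00 for all tested genes. Actl6a, an actin-related subunit of chromatin remodelling complexes, led with 1.77 in A1G tumours (SE 0.31, edgeR adjusted p = 0.000952) and 2.43 in Ptch1 tumours (SE 0.31, edgeR adjusted p = 7.67e-05). Trrap, the scaffold of histone acetyltransferase complexes, was at 1.13 in A1G tumours (edgeR adjusted p = 0.0376) and 0.71 in Ptch1 tumours (edgeR adjusted p = 0.154).

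The SIN3 corepressor, through which the MXD proteins and MNT act, had 3 of 14 genes higher in A1G tumours (Hdac2, Rbbp4 and Sin3a) and 7 of 14 in Ptch1 tumours (those 3 and Arid4b, Ing1, Rbbp7 and Sap30), with 0 lower. All tested genes were higher in 16.3% and 20.2% of cases in these contrasts, so the count in A1G tumours lies near that share. Hdac2, a histone deacetylase, had 321, 233 and 301 CPM in A1G tumours, 523, 575 and 384 CPM in the Ptch1 tumours, and 134, 87.9 and 51.5 CPM in cerebellum. The groups did not overlap, at a log2 fold change of 1.64 in A1G tumours (SE 0.34, edgeR adjusted p = 0.0032) and 2.44 in Ptch1 tumours (SE 0.35, edgeR adjusted p = 0.0002). Between the tumour kinds the difference was -0.80 (SE 0.34, edgeR adjusted p = 0.433). Sin3a, the scaffold of the complex, was 1.998-fold higher in A1G tumours and 1.94-fold higher in Ptch1 tumours.

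The partners of MGA in PRC1.6 were higher for 3 of 9 genes in A1G tumours (Cbx3, Rnf2 and Tfdp1) and 4 of 9 in Ptch1 tumours (those 3 and Rybp), with 0 lower, while 6 and 5 of the 9 did not pass. The share of all tested genes called higher was 16.3% in A1G tumours and 20.2% in Ptch1 tumours. Cbx3, a heterochromatin protein, was highest in fold, at 1.86 on the log2 scale in A1G tumours (SE 0.31, edgeR adjusted p = 0.000816) and 2.51 in Ptch1 tumours (SE 0.32, edgeR adjusted p = 7.7e-05). Rnf2, a ubiquitin ligase of Polycomb complexes, was at 1.44 in A1G tumours (edgeR adjusted p = 0.0257) and 1.87 in Ptch1 tumours (edgeR adjusted p = 0.00544). Further relatives were Mlx, Mlxip, which encodes a partner of MLX, and Zbtb17, which encodes the MYC-binding factor MIZ1. Of these, 0 of 3 tested passed in either contrast, while Mycl and Mlxipl were not tested. Zbtb17 was nearest, at 0.69 in Ptch1 tumours (SE 0.26, edgeR adjusted p = 0.0518). Between A1G and Ptch1 tumours, 0 genes of any of these lists passed the test, beside 0.0139% of tested genes, and the list medians lay between -0.46 and -0.02, beside 0.02 for all tested genes. The gene of each list with the highest mean CPM stood there at 0.42 for Trrap, -0.42 for Rnf2, -0.43 for Ccnd2, -0.31 for Zbtb17 and 0.17 for Huwe1, a ubiquitin ligase that acts on MYC (edgeR adjusted p = 0.716, 0.755, 0.615, 0.7 and 0.892), in addition to Hdac2.

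**Figure D5:**
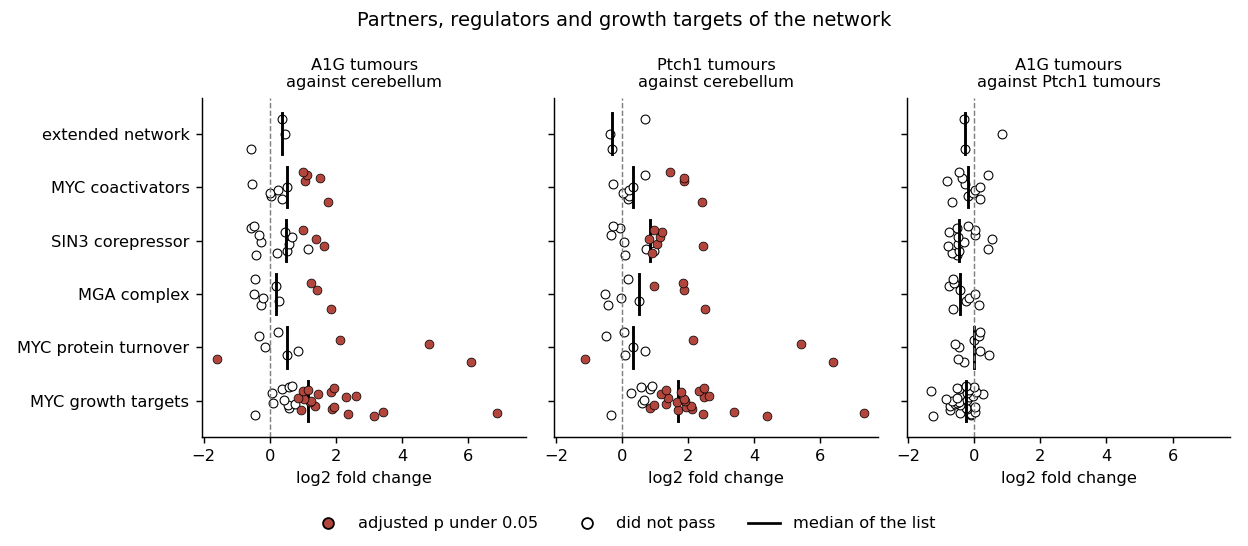
Log2 fold change (horizontal axis) of each tested gene in the 6 lists around the network, for the 3 comparisons; filled points have an edgeR adjusted p under 0.05 and vertical bars mark list medians. The growth targets have the highest median in both contrasts with cerebellum, at 1.17 and 1.70, and no point is filled in A1G against Ptch1 tumours.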

How the data were processed

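The data were 9 deposited gene tables, 1 per library, from ribosome-depleted total RNA. The submitters' processing notes name mm10 as build and Bowtie 0.12.2 as a tool. The quantification tool and annotation are not given in the sources used here. Per the file headers, the authors deposited expected counts (raw fragments per gene, not scaled), a scaled signal in 2 equal columns, which was not tested, and FPKM. The authors scaled tumour and cerebellum values separately, so FPKM served for the filter, for limma and for shares within a library. From 1147 to 1440 genes per library held fragments that were not whole (tolerance 1e-06).

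Fragments were rounded and tested with edgeR 4.0.16 (glmQLFit, glmQLFTest, TMM scaling, R 4.3.3) over all 9 libraries, with Benjamini-Hochberg adjustment over 14337 genes and a threshold of 0.05. The filter asked for an FPKM of 1 or more in 3 or more libraries. Standard errors were derived from the F statistic. The scripts were tested on simulated data. Depth ranged from 2350941 to 9290237 fragments per library, which limits the precision of low genes such as Myc and Mxd3 in cerebellum. Alternatives were median-of-ratios scaling, no filter, a stricter filter, DESeq2 1.42.0, limma 3.58.1 on log2(FPKM + 1) and log2(FPKM + 0.1), only the 2 groups compared, a replicate block and leaving out libraries.

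Named were all 9 members. From each pathway list and comparison, the 3 genes with the smallest p past the threshold were named or, where none passed, the 1 with the highest mean CPM. A further 3 most similar genes were named per member, passing over predicted genes and small RNAs. Genes named beside a count, a motif or a list outside this rule (such as Odc1, Ncl, Trrap in Ptch1 tumours and Skp2 in A1G tumours) were chosen after their values were seen. The members and lists were chosen with earlier results of these data known. Coordinates are from GENCODE M21 and promoters from RefSeq, GRCm38.p6. Libraries of the same chip are not identified in the labels, so a difference between chips and a difference between groups cannot be told apart.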

Additional observations from a re-analysis of the deposited data

How the results depend on the processing

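Over 18 alternatives and 9 members, direction and side of the threshold were kept in 147 of 162 values in A1G tumours against cerebellum, 136 of 162 in Ptch1 tumours against cerebellum and 148 of 162 between tumour kinds. The calls of Mycn, Myc and Mxd3 against cerebellum were kept in all 18. Not all alternatives test the fold change equally. Leaving out a library of the group not compared hardly moves it, and both limma fits use FPKM scaled separately for tumour and cerebellum. Myc moved most of these 3, to 2.80 in A1G and 2.72 in Ptch1 tumours with limma on log2(FPKM + 1), a scale that understates the change of low genes.

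Leaving out 1 library at a time gave 3376 to 4744 genes in A1G tumours against cerebellum, with 3 to 4 members higher and 0 to 1 lower. For Ptch1 tumours it gave 4424 to 6219 genes, with 3 to 5 members higher and 0 to 1 lower. Between tumour kinds it gave 0 to 4 genes and 0 members. Mycn moved within 5.45 to 5.75 in A1G and 5.70 to 5.96 in Ptch1 tumours. Without A1G tumour replicate 2 and cerebellum replicate 3 together, 1 member was lower in A1G tumours and 7 genes differed between tumour kinds. In Ptch1 tumours the stricter filter left 3 members higher and 1 lower (Max), DESeq2 gave 1 lower (Max), and the 2 groups alone gave 1 lower (Mxd4, -1.04, edgeR adjusted p = 0.0312). The call of Mga in A1G tumours was lost with the 2 groups alone (edgeR adjusted p = 0.0579), and in Ptch1 tumours under the stricter filter (edgeR adjusted p = 0.0511). Genes differing between tumour kinds numbered 81 without a filter, 163 with DESeq2, 0 with limma on log2(FPKM + 1) and 0 with the 2 groups alone, against 2. Beyond fewer libraries or other genes in the fit, the cause was not tested.

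Sign changed only for values that passed no test. In A1G tumours against cerebellum, leaving out 1 library moved Max over -0.591 to 0.021, Mxd1 over -0.48 to 0.22 and Mnt over -0.23 to 0.98, and Mxd1 was 0.033 without a filter. In Ptch1 tumours Mxd1 moved over -0.163 to 0.068 and Mnt over -1.13 to 0.06, and with both libraries left out each was 0.063. Between tumour kinds Myc moved over -0.72 to 0.67, Mxd1 over -0.39 to 0.31, Mxd4 over -0.49 to 0.42 and Mga over -0.065 to 0.297. With both libraries left out, Myc was -0.72, Mxd1 -0.39 and Mxd4 -0.48, and Mxd4 was -0.018 in limma on log2(FPKM + 1) and -0.024 on log2(FPKM + 0.1).

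The labels give no pairing of the samples by replicate number. Deviations of same-numbered libraries correlated at -0.069 to 0.211. Differently numbered libraries were not set beside them, so these values cannot decide whether the samples were paired. With a replicate block there were 4456, 5593 and 2 genes and 4, 4 and 0 members higher in the 3 comparisons (A1G and Ptch1 tumours against cerebellum, and A1G against Ptch1 tumours), and Mxi1 in Ptch1 tumours was at 0.75 (edgeR adjusted p = 0.0549). Low fragment counts limit Myc and Mxd3 in cerebellum.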
